A study of Homo sapiens with 6 samples.

Results

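WNT ligands, their receptors, secreted inhibitors and the proteins that carry the signal to the nucleus were examined in WM164, a human melanoma cell line with the BRAF V600E mutation. The genes were taken by symbol and annotation and not by their values, though the list was chosen with earlier results of these data known. They are the protein-coding WNT, FZD, SFRP and DKK genes and a fixed list of co-receptors, destruction complex genes, TCF and LEF factors and inhibitors. This gave 54 of the 60504 genes in the table. RNA-seq was compared between cells with an empty expression vector (EV) and cells with an HDAC8 expression vector, with 3 libraries in each group. All 6 libraries share the WM164 background and the BRAF mutation. The study kept the plasmid-transfected cells in hygromycin, and whether each population grew from a single clone is not given in the sources used here.

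WNT proteins are secreted lipid-modified ligands that bind frizzled (FZD) receptors. With the co-receptors LRP5 and LRP6 they block the destruction complex of APC and AXIN, so that beta-catenin accumulates and joins TCF and LEF factors on DNA. In another branch, WNT5A signals through ROR and frizzled receptors to the cytoskeleton without beta-catenin, and in melanoma WNT5A is known for its link to cell motility. LEF1 and beta-catenin are known in the melanocyte lineage for their part in MITF expression.

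Total counts per library ran from 34741083 to 42041462. HDAC8 1 stood apart from HDAC8 2 and HDAC8 3 on the second principal component (12.49 against -9.72 and -4.27), so results that rest on it are given with and without it. HDAC8 transcript, a check of the vector, had 383.8, 404.4 and 478.8 normalized counts in EV and 484.8, 445.5 and 473.7 in the other group. The groups overlapped (log2 fold change 0.15, SE 0.28, 95% interval -0.41 to 0.70, DESeq2 adjusted p = 0.856). It therefore gives no check on which library is which, and directions below are those of the libraries labelled HDAC8 against EV. Means below are given ± SD over the 3 libraries of a group. All 7 melanocyte markers examined (MITF, SOX10, PMEL, MLANA, TYR, DCT and S100B) had counts. Their summed normalized count was 244898 to 328728 in EV and 137044 to 182218 in the libraries labelled HDAC8. Most of it was PMEL (mean 200032 against 110587). By gene the log2 fold change was -4.84 for MLANA, -1.60 for TYR, -1.08 for DCT and -0.855 for PMEL. It was -0.66 for S100B, -0.33 for SOX10 and -0.20 for MITF. The DESeq2 adjusted p was under 0.05 for MLANA, TYR, DCT, PMEL and S100B. It was 0.211 for SOX10 and 0.544 for MITF, and for MITF the groups overlapped. Of the fibroblast markers, 4 of 5 had counts, mostly LUM, with sums of 2357.3 to 2852.2 against 1148.3 to 2187.6 and DCN at 0. Epithelial markers (3 of 4, EPCAM at 0) summed to 77.5 to 131.9 against 0.0 to 70.1, and endothelial markers (2 of 3, CDH5 at 0) to 97.5 to 203.0 against 114.3 to 218.0. Leukocyte markers (3 of 3) summed to 2286.0 to 3302.4 against 4272.9 to 6164.6, almost all CD68. CD3E had no count in EV and 92, 89 and 46 in the other group, and PTPRC had none in EV and at most 3. Mitochondrially encoded transcripts took 9.66% to 12.8% of the counts in EV and 4.46% to 7.94% in the other group. The part of these lists in the results was not tested. In a bulk sample, fewer cells with a transcript and less transcript per cell cannot be told apart.

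Promoters of 3 called genes are shown first, as context for the counts. FZD9 and TCF7L1, also called, have windows that are not printed. FZD7 and NOTUM, called as well, have no entry in the promoter table used. RefSeq windows (GRCh38.p14, 250 bases before to 50 after a start) were matched by symbol for 38 of the 54 genes, which had 45 starts. ROR2, which fell most among the called genes, has its window at chr9:91950179-91950478 on the minus strand. WNT5A, a ligand of ROR2 that fell with it, has 2 starts, at chr3:55487257-55487556 and chr3:55481349-55481648 on the minus strand. LRP5, which rose, has its window at chr11:68312341-68312640 on the plus strand. Each sequence is written 5′ to 3′ along its gene, with GC boxes (GGGCGG on either strand) in capitals.
ROR2: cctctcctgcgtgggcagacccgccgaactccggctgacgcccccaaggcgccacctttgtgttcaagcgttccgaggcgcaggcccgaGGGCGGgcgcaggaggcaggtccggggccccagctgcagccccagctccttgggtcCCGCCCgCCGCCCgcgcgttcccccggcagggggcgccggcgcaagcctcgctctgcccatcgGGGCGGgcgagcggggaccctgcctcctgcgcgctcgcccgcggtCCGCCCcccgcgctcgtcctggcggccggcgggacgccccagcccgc
WNT5A at 55487257: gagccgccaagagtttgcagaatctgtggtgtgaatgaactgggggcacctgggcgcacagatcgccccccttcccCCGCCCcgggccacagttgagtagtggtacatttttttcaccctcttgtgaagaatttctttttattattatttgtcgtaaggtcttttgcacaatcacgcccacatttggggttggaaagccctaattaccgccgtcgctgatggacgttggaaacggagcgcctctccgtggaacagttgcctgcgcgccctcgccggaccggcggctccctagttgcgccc
WNT5A at 55481349: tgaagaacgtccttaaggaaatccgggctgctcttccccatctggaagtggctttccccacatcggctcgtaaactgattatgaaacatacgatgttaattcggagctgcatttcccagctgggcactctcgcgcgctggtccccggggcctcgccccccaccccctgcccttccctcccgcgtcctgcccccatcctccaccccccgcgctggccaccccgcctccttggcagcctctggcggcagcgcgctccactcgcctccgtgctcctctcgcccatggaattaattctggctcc
LRP5: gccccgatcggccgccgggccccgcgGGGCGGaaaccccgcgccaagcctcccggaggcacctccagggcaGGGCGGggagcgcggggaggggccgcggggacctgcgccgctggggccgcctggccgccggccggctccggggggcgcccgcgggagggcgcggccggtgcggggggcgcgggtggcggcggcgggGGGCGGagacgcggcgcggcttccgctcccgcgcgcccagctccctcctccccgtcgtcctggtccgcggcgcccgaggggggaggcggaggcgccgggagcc
The ROR2 window has 5 GC boxes and 79.7% GC, and the LRP5 window has 3 and 86.7%. The WNT5A windows have 1 and 0, with 56.3% and 63.7% GC. Of the windows not printed, FZD9 has 2 GC boxes and 73.7% GC, and TCF7L1 has 1 and 74.3%. A GC box stood in 34 of the 45 windows, against 45.0% of all 35116 promoters in the table, and the median GC content was 69.0% in the 45 windows and 58.7% in all promoters. The TCF/LEF motif CTTTGAT was found on neither strand in any of the 45 windows (2.62% of all promoters hold it), nor was the AP-1 motif TGANTCA (7.71%). The E-box TCACGTG, which MITF can bind, was found in 1 of them, at APC (3.71% of all promoters). None of these motifs is contained in another, all were chosen with the results known, and a match or its absence in these letters says nothing of binding.

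The level of each gene was examined next. No count was found in any library for 11 genes: the ligands WNT1, WNT2, WNT7A, WNT8A and WNT9B, the receptor FZD10 and the inhibitors DKK2, DKK4, SFRP2, SFRP4 and WIF1. A count of 0 allows up to 3 counts, equal to between 2.57 and 3.27 after normalization. WNT10A had a total count under 10 and was not tested. The other 42 genes were tested within a fit over 26162 genes whose counts summed to 10 or more, and 36 of them received an adjusted p. A mean of 50 or more normalized counts was reached by 29 of the 54.

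Per exon length, the most abundant transcripts were those for the core of the beta-catenin branch. In EV, as TPM (counts per exon length, scaled to the same total in each library), CTNNB1 (beta-catenin) was at 203.0 ± 15.8 and LEF1 at 183.2 ± 11.9. They were followed by FZD6 (110.6 ± 10.2), SFRP1 (92.3 ± 4.63), LRP6 (90.5 ± 9.10) and FZD7 (57.6 ± 6.28). CTNNB1 and LEF1 overlapped within their SDs, as did SFRP1 and LRP6. Among ligands WNT5A was highest at 6.53 ± 0.312 TPM and WNT10B (1.78 ± 0.0617) and WNT2B (1.67 ± 0.609) came next.

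HDAC8 against EV gave 3 genes higher and 4 lower at an adjusted p under 0.05 and a log2 change no smaller than 0.58 in size, as in the methods of the study. The study also counted calls without adjustment for multiple testing, and at an unadjusted p under 0.05 with the same fold minimum 4 members were higher and 6 lower, where 14.2% of all genes with a p passed. The 7 genes called with the adjusted p are 19.4% of the 36 genes with one, where 11.0% of all genes with one were called (5.57% higher and 5.44% lower). Levels differ, since 29 of the 42 members tested reached a mean of 50 or more, against 14451 of the 26162 genes tested. The members were chosen with earlier results of these data known. This share and those of the roles below therefore cannot stand as results about the pathway. Groups were fully apart for 8 genes higher and 10 lower of the 42 tested, where 24.0% of all genes tested had groups apart. The median log2 fold change was 0.02 over the 29 genes at a mean of 50 or more, against -0.001 over all such genes. Lower genes were ROR2, FZD7, WNT5A and TCF7L1, and higher genes were LRP5, FZD9 and NOTUM. Calls for ROR2 and FZD7 were kept in all 14 alternative fits, and each of the others was lost in at least 1. A fit without mitochondrially encoded genes again gave 3 higher and 4 lower.

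**Figure D1:**
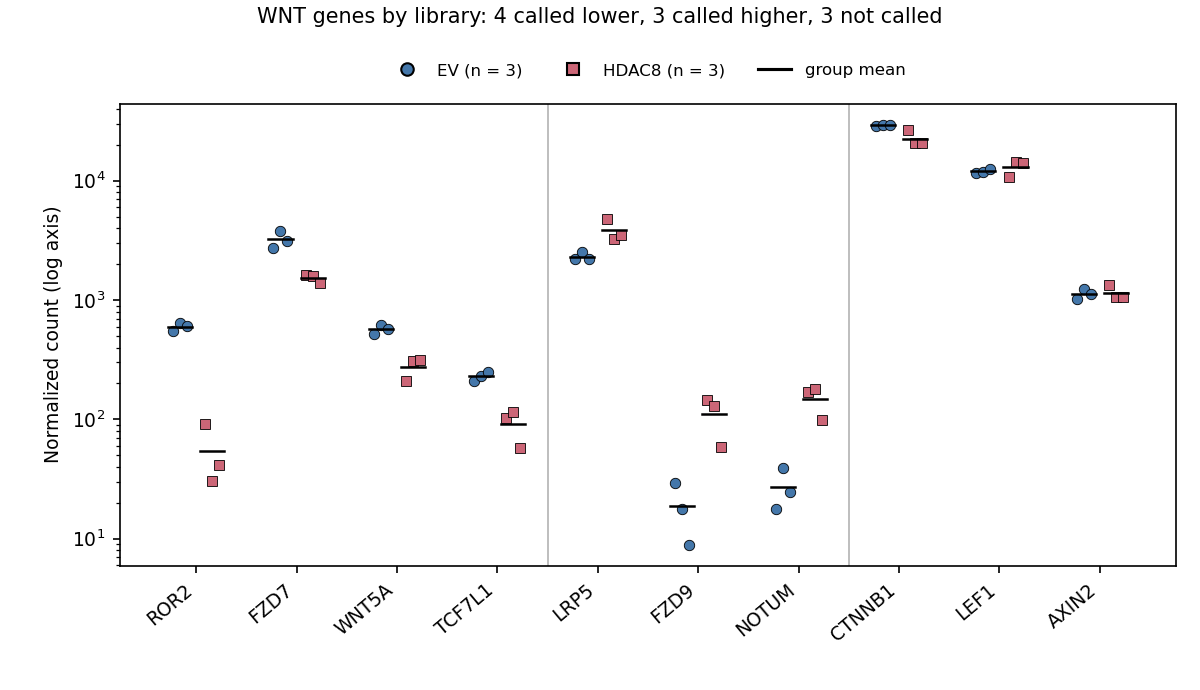
Normalized counts (log axis) of 10 WNT genes in each EV (circles) and HDAC8 (squares) library, with bars at group means. ROR2, FZD7, WNT5A and TCF7L1 sit lower and LRP5, FZD9 and NOTUM higher in the HDAC8 group with no overlap, while LEF1 and AXIN2 overlap.

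Ligands were examined by gene. WNT5A (ENSG00000114251, GRCh38 chromosome 3, 55465715 to 55490539, minus strand), the ligand best known for signalling without beta-catenin, had normalized counts of 521.2, 621.1 and 569.4 in EV and 208.6, 310.3 and 313.6 in the libraries labelled HDAC8. All EV libraries were above all of the other group. WNT5A fell by 1.04 on the log2 scale (SE 0.31, DESeq2 adjusted p = 0.00925). The direction held in every fit, but the adjusted p was 0.0877 without EV replicate 2 and 0.0665 without EV replicate 3. WNT5A was the ligand called among 9 with an adjusted p, which is 11.1%, near the 11.0% of all genes.

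WNT3, a ligand of the beta-catenin branch, had 51.4, 54.2 and 5.9 in EV and 95.8, 98.3 and 89.3 in the other group. The groups were apart, but EV 3 was far below the other EV libraries and the gene was not called (log2 fold change 1.35, SE 0.83, DESeq2 adjusted p = 0.345). WNT8B was also apart at low counts (0.0, 14.9 and 6.9 against 21.4, 26.6 and 27.2, DESeq2 adjusted p = 0.565). WNT10B was apart in the other direction, with 56.4 ± 4.7 against 45.3 ± 3.3 (log2 fold change -0.32, SE 0.75, DESeq2 adjusted p = 0.893). WNT2B did not separate the groups (247.1 ± 65.0 against 267.5 ± 73.2). WNT4, WNT6, WNT9A and WNT16 had a count of 0 in at least 1 library and a highest value of 71.8, and none was called. WNT3A, WNT5B, WNT7B and WNT11 had normalized counts of 0 to 15.8 and no adjusted p.

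Frizzled receptors, which bind the ligands, moved in both directions. FZD7 (ENSG00000155760, chromosome 2, 202033855 to 202038441, plus strand) had 2751.5, 3809.5 and 3147.5 in EV and 1637.5, 1577.2 and 1390.6 in the libraries labelled HDAC8. It fell by 1.08 on the log2 scale (SE 0.18, DESeq2 adjusted p = 1.62e-07), which is 2.11-fold, and the lowest EV value was above every value of the other group. Across alternatives its log2 fold change ran from -1.18 to -0.94.

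FZD9 (ENSG00000188763, chromosome 7, 73433778 to 73436120, plus strand) was near the bottom of the family in EV with 29.4, 17.7 and 8.9 and reached 145.4, 129.0 and 58.8 in the other group. The values did not overlap, and FZD9 rose by 2.58 on the log2 scale (SE 0.78, DESeq2 adjusted p = 0.0106). The adjusted p was 0.0783 without HDAC8 replicate 1, 0.0668 without HDAC8 replicate 2, 0.0706 without EV replicate 3 and 0.0887 with limma-voom.

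With the called genes included, groups were apart for 3 frizzled genes higher and 4 lower of the 9 tested. Of all genes tested, 24.0% had groups apart. All 9 reached a mean of 50 or more, against 14451 of the 26162 genes tested. In 5 frizzled genes the groups were apart without a call. FZD2 (291.6 ± 32.5 against 157.9 ± 30.3, DESeq2 adjusted p = 0.124), FZD4 (302.7 ± 22.0 against 180.3 ± 20.1, 0.186) and FZD5 (1324.4 ± 53.0 against 983.2 ± 85.9, 0.147) were lower in each library labelled HDAC8. FZD1 (1097.3 ± 276.7 against 1608.0 ± 140.5, DESeq2 adjusted p = 0.0919) and FZD8 (307.5 ± 71.7 against 532.8 ± 47.1, 0.0745) were higher in each. FZD4 had fractional counts in 5 libraries, so some of its reads may have been shared with another gene. FZD3 (1857.5 ± 259.0 against 1358.8 ± 507.3) and FZD6 (5473.7 ± 422.7 against 7077.3 ± 1824.7) overlapped between groups. HDAC8 1 was the lowest of all libraries for both, with 773.0 for FZD3 and 5075.8 for FZD6. Without it FZD6 was apart, while HDAC8 3 still overlapped EV for FZD3.

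**Figure D2:**
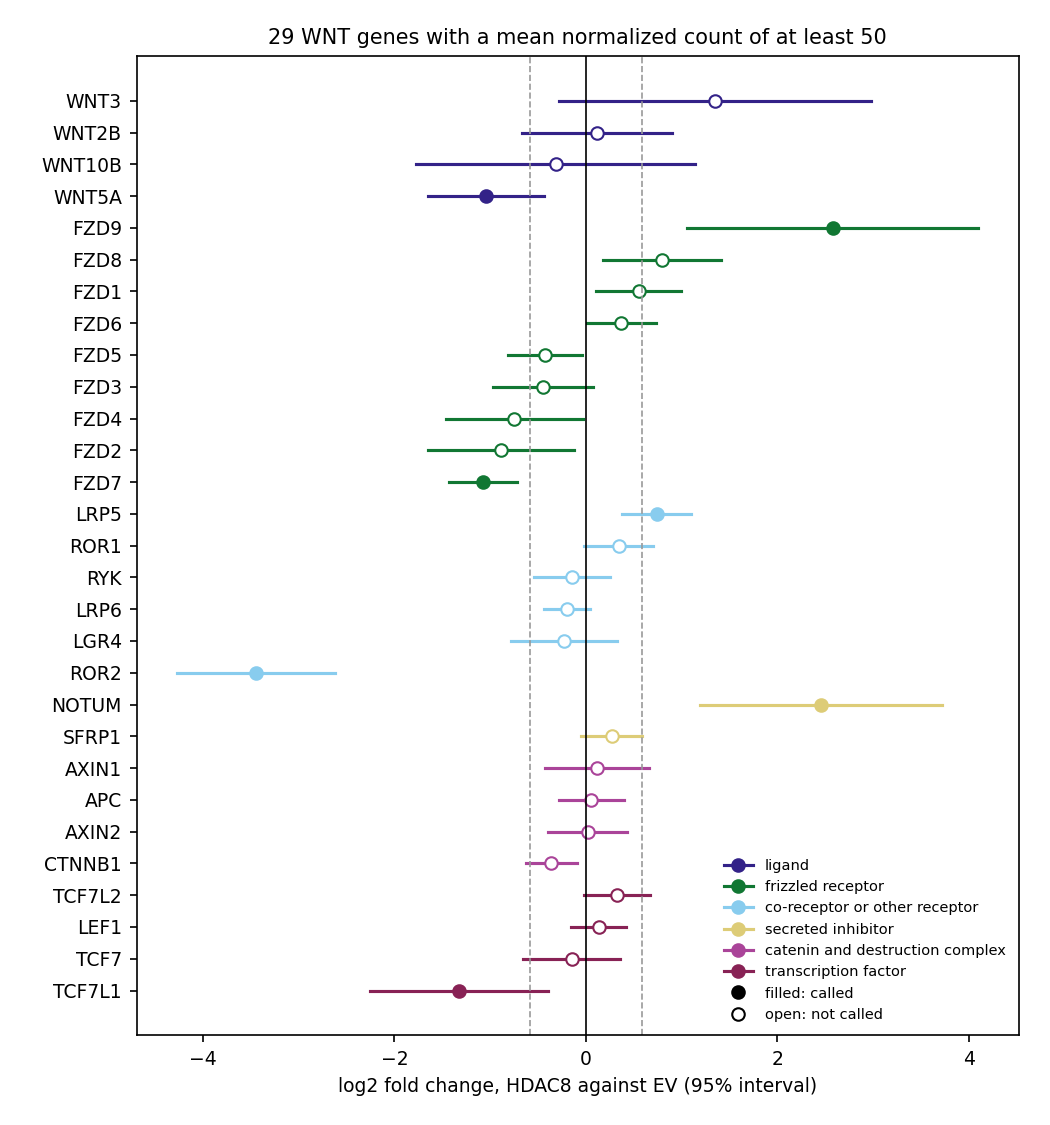
Log2 fold change of HDAC8 against EV with its 95% interval for the 29 genes at a mean of 50 or more normalized counts, coloured by role, with dashed lines at 0.58 in either direction. Filled points passed both thresholds, and frizzled receptors spread from FZD7 (-1.08) to FZD9 (2.58) while catenin and destruction complex genes stay within -0.36 to 0.11.

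Since receptors share ligands, the make-up of the family within each library was also computed, as each gene's share of frizzled reads per exon length. FZD6 held the largest share throughout, with 50.7%, 44.7% and 52.5% in EV and 54.3%, 66.6% and 64.1% in the libraries labelled HDAC8. FZD7 held 23.3%, 29.2% and 24.6% in EV and 15.5%, 10.8% and 10.5% in the other group, a mean difference of -13.4 percentage points. FZD9 went from a mean of 0.30% to 1.76%, and FZD8 from 2.78% to 4.82%. In these 4 genes and in FZD2, FZD3, FZD4 and FZD5, whose shares were lower, the groups were apart (exact permutation test, two-sided, p = 0.1 each before adjustment, the smallest that 3 against 3 allows). Shares within a library add up to a whole and are not independent, and 19 were computed in all.

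**Figure D3:**
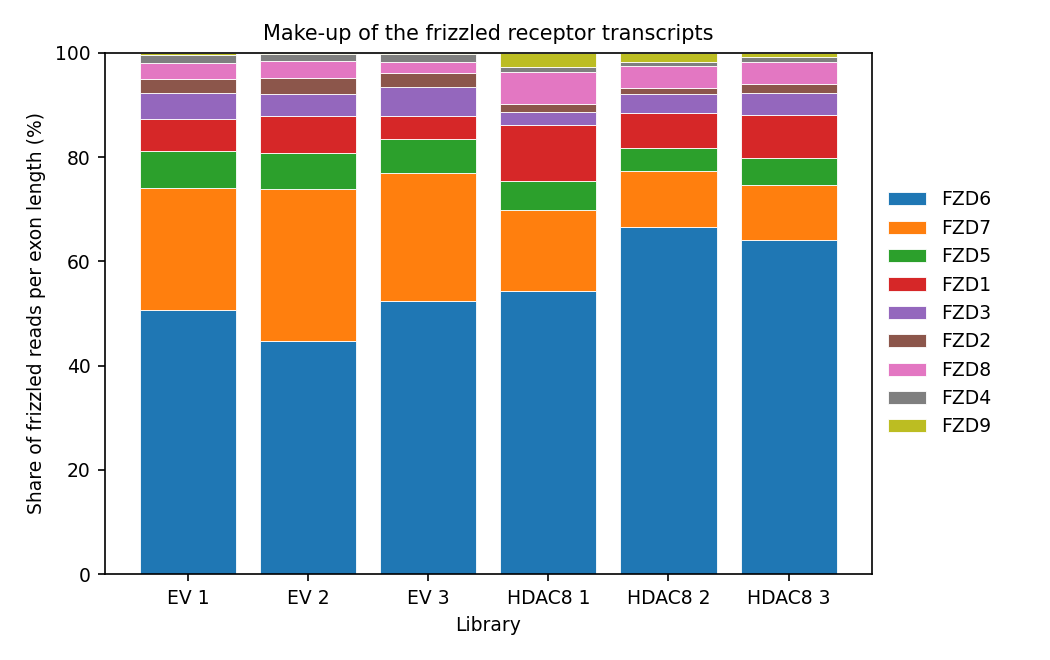
Stacked bars of each frizzled gene's share (%) of frizzled reads per exon length in each of the 6 libraries. The FZD7 band narrows from a mean of 25.7% in EV to 12.3% in HDAC8 libraries, and FZD6 stays the widest band in each library.

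Among co-receptors and other receptors, 1 gene was higher and 1 lower of 6 with an adjusted p (33.3%, against 11.0% of all genes). ROR2 had the largest change of the 7 called genes. ROR2 (ENSG00000169071, chromosome 9, 91563091 to 91950228, minus strand), a receptor tyrosine kinase that binds WNT5A, had 554.7, 637.9 and 603.9 in EV and 91.5, 30.7 and 41.4 in the libraries labelled HDAC8. EV libraries lay close together, and HDAC8 1 kept the most transcript of its group. ROR2 fell by 3.45 on the log2 scale (SE 0.42, DESeq2 adjusted p = 3.93e-14), a 10.9-fold difference, and by 4.06 without HDAC8 replicate 1.

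ROR1, the closest relative of ROR2, was not called. Its values were 3077.6, 3371.5 and 3100.2 in EV and 3024.4, 4413.1 and 4656.4 in the other group, where HDAC8 1 lay below every EV library. Its log2 fold change was 0.34 (95% interval -0.02 to 0.70, DESeq2 adjusted p = 0.245), and without HDAC8 replicate 1 the adjusted p was 0.00113 at a log2 fold change of 0.51, under the fold minimum. RYK, a receptor with an inactive kinase, overlapped between groups (2832.0 ± 388.5 against 2563.1 ± 611.4). Of the reads per length of ROR1, ROR2 and RYK, ROR2 held 9.89%, 11.7% and 11.6% in EV and 2.23%, 0.50% and 0.68% in the other group, while ROR1 went from a mean of 51.4% to 65.0%.

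LRP5 (ENSG00000162337, chromosome 11, 68312591 to 68449275, plus strand), a co-receptor of the beta-catenin branch, had 2201.0, 2526.3 and 2188.0 in EV and 4771.4, 3258.8 and 3496.6 in the libraries labelled HDAC8. HDAC8 1 was the highest, and the groups did not overlap. LRP5 rose by 0.74 on the log2 scale (SE 0.18, DESeq2 adjusted p = 0.00107), and without HDAC8 replicate 1 it was higher by 0.55 (DESeq2 adjusted p = 0.00250), under the fold minimum. Its paralog LRP6 was 11456.0, 11067.1 and 11694.4 against 9396.5, 10612.2 and 9796.2, lower in each library of the group labelled HDAC8 but not called (log2 fold change -0.20, 95% interval -0.44 to 0.05, DESeq2 adjusted p = 0.353). LRP5 held a mean of 25.3% of the LRP5 and LRP6 reads per length in EV and 39.2% in the other group, with no overlap (exact permutation test, two-sided, p = 0.1).

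LGR4, a receptor for R-spondins, was not called (951.6 ± 143.2 against 812.3 ± 257.6, DESeq2 adjusted p = 0.735). LGR5, a stem cell marker in other tissues, had 20 counts in EV 1 and none in the other libraries, and received no adjusted p.

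Of the secreted inhibitors, 5 of 10 had no count. NOTUM (ENSG00000185269, chromosome 17, 81952507 to 81961840, minus strand), an extracellular enzyme that removes the lipid from WNT ligands, had 17.8, 39.2 and 24.6 in EV and 168.5, 181.3 and 99.1 in the libraries labelled HDAC8. The lowest value of that group was above the highest EV value, and NOTUM rose by 2.46 on the log2 scale (SE 0.64, DESeq2 adjusted p = 0.00217). With limma-voom the adjusted p was 0.0506, just past the threshold. SFRP1, a decoy that binds WNT ligands, was by far the most abundant inhibitor and overlapped between groups, with 5001.8, 5661.5 and 5319.7 against 5157.0, 7004.2 and 7069.5 (log2 fold change 0.27, 95% interval -0.05 to 0.58, DESeq2 adjusted p = 0.324). Only HDAC8 1 overlapped EV for SFRP1, and without it the groups were apart. SFRP5 was uneven, with 124.8 in HDAC8 1 and 8.2 in HDAC8 2 against 17.8 to 40.2 in EV. DKK1, which blocks LRP5 and LRP6, had no more than 2 counts in an EV library and 20, 0 and 4 in the others, and DKK3 ran from 0.0 to 31.5 normalized counts.

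Of the 4 members for beta-catenin and its destruction complex none was called (APC2, from the other pathway list, is given below). CTNNB1 had 28506.2, 29582.3 and 29046.5 in EV and 26530.6, 20684.7 and 20510.4 in the libraries labelled HDAC8. EV libraries were tightly grouped and HDAC8 1 lay between EV and the other libraries of its group. The log2 fold change was -0.36 (SE 0.14, 95% interval -0.63 to -0.10, DESeq2 adjusted p = 0.0572), and without HDAC8 replicate 1 it was -0.50 (DESeq2 adjusted p = 1.19e-07), still under the fold minimum. AXIN2, a scaffold of the complex and a widely used target gene of beta-catenin, had 1025.5, 1246.8 and 1118.1 against 1326.2, 1050.8 and 1059.6. Its groups overlapped (log2 fold change 0.02, 95% interval -0.39 to 0.43, DESeq2 adjusted p = 0.98), and its sign turned in 2 fits, to -0.10 without HDAC8 replicate 1 and to -0.05 without EV replicate 1. AXIN1 (1087.8 ± 236.1 against 1176.5 ± 435.5) and APC (7593.6 ± 651.7 against 7898.7 ± 1754.8) overlapped as well.

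Among the factors that bind beta-catenin on DNA, TCF7L1 was called and LEF1, TCF7 and TCF7L2 were not. TCF7L1 (ENSG00000152284, chromosome 2, 85133392 to 85310387, plus strand), known mainly as a repressor, had 208.7, 232.5 and 249.2 in EV and 101.8, 114.7 and 57.7 in the libraries labelled HDAC8, with no overlap. It fell by 1.33 on the log2 scale (SE 0.47, DESeq2 adjusted p = 0.0412). This call was lost in 8 of 14 alternatives. The adjusted p was 0.0703 with edgeR, 0.0725 with limma-voom and 0.0532 with total-count size factors. It was 0.132, 0.158 and 0.1997 without EV replicate 1, 2 or 3 and 0.181 without HDAC8 replicate 3. LEF1, which had fractional counts in 2 libraries, had 11521.0, 11852.5 and 12505.2 against 10753.5, 14489.7 and 14122.6, with HDAC8 1 below EV and the others above it (log2 fold change 0.13, 95% interval -0.15 to 0.42, DESeq2 adjusted p = 0.687). Without HDAC8 replicate 1 its groups were apart and the log2 fold change was 0.257 (DESeq2 adjusted p = 0.0457), under the fold minimum. TCF7L2 was higher in each library of the group labelled HDAC8 (1717.7 ± 52.2 against 2152.5 ± 251.8) and was not called (log2 fold change 0.33, 95% interval -0.02 to 0.67, DESeq2 adjusted p = 0.244). TCF7 overlapped (760.7 ± 114.9 against 687.0 ± 127.0). LEF1 made up 85.4% ± 0.72 of the TCF and LEF reads per length in EV and 85.6% ± 1.72 in the other group.

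Noncoding genes that carry the name of a member were checked, since the counting is not stated to use strand and reads of antisense pairs cannot be told apart. WNT5A-AS1 had 11, 50 and 3 counts in EV and 0, 0 and 6 in the other group, against 497 to 665 and 244 to 303 for WNT5A. LEF1-AS1 had 91 to 315.5 counts and ROR1-AS1 51 to 112. DESeq2 called 0 of the 5 such genes tested, 0 were under an unadjusted p of 0.05, and edgeR likewise called 0.

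To place the members in the pathway, 85 other WNT pathway genes from a list of general knowledge were read from the same fit. Of the 70 with an adjusted p, 12 were higher and 4 lower, which is 22.9% against the 11.0% of all genes. Without HDAC8 replicate 1 these counts were 11 and 4. The list was chosen with earlier results of these data known, so its share cannot stand as a result about the pathway. Levels also differ, since 66 of the 85 genes reached a mean of 50 or more, against 14451 of the 26162 genes tested. The 11.0% of all genes also stands beside the small subgroup counts below. RSPO1, RSPO2, LGR6, MUSK, SOST, SOSTDC1, DRAXIN, DACT2, SOX17 and MMP7 had no count in any library.

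Planar polarity genes, which work with WNT5A and ROR2 in orienting cells, gave 3 higher and 1 lower of 11. VANGL2, a core membrane protein of this system, had 1093.7, 1357.0 and 938.8 in EV and 425.8, 448.6 and 529.2 in the libraries labelled HDAC8, and fell by 1.27 on the log2 scale (SE 0.25, DESeq2 adjusted p = 8.88e-06). Its paralog VANGL1 was not called. CELSR1, an atypical cadherin of the same system, was at 6518.3 ± 1179.5 in EV and 13952.8 ± 2104.9 in the other group, a rise of 1.10 on the log2 scale (DESeq2 adjusted p = 2.24e-09). PRICKLE2 rose by 0.86 (DESeq2 adjusted p = 8.38e-07), with fractional counts in every library. SCRIB rose by 0.72 on the log2 scale (DESeq2 adjusted p = 0.00710), a call that was lost without HDAC8 replicate 1 (0.40, under the fold minimum), EV replicate 1 (adjusted p = 0.0676) or EV replicate 3 (0.0879).

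PTK7, a kinase-dead receptor known for planar polarity, had 3353.4, 4863.0 and 3156.3 in EV and 817.5, 499.8 and 676.2 in the libraries labelled HDAC8. It fell by 2.51 on the log2 scale (SE 0.23, DESeq2 adjusted p = 6.54e-26). It is counted with the receptor regulators, of which 1 was higher (TPBG) and 1 lower of 11 with an adjusted p.

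Of the genes listed under secretion 1 of 4 was called (TRABD2B), and of the cytoplasmic genes 3 of 19 with an adjusted p, all higher. PORCN, WLS and TRABD2A were not called (DESeq2 adjusted p = 0.693, 0.947 and 0.643). TRABD2B, a metalloprotease that cuts WNT ligands, had 508.6, 692.0 and 472.9 in EV and 2999.6, 3123.7 and 2817.1 in the libraries labelled HDAC8 (log2 fold change 2.42, SE 0.20, DESeq2 adjusted p = 4.63e-31). Its counts were fractional in the 3 libraries labelled HDAC8 and whole in EV. DACT1 and NKD1, which bind dishevelled, rose by 2.17 (SE 0.43, DESeq2 adjusted p = 1.78e-05) and 1.44 (SE 0.18, DESeq2 adjusted p = 3.55e-14). TPBG, a membrane protein that hinders LRP6, had 618.8 ± 108.9 and 1159.9 ± 45.6 (DESeq2 adjusted p = 0.00134). APC2, a relative of APC with fractional counts in every library, had 1263.4 ± 99.2 and 2316.6 ± 355.9 (DESeq2 adjusted p = 9.26e-05).

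Of the 12 nuclear genes of the list with an adjusted p, 3 were higher, 1 was lower and 8 were not called. TLE4 (log2 fold change 0.05) and BCL9 (-0.18), relatives of called genes, were among those not called. BCL9L, a co-activator of beta-catenin, was at 2515.7 ± 498.0 in EV and 6189.9 ± 537.1 in the other group (rise of 1.30 on the log2 scale, SE 0.17, DESeq2 adjusted p = 4.17e-12). The Groucho co-repressors TLE1 and TLE3 rose by 0.85 and 0.69 (DESeq2 adjusted p = 1.13e-05 and 2.26e-04). TLE2 of the same family fell by 1.49 (DESeq2 adjusted p = 3.18e-04), with 475.0, 541.7 and 414.7 in EV and 157.3, 211.0 and 140.5 in the libraries labelled HDAC8.

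Common target genes gave 1 higher and 1 lower of the 11 with an adjusted p in this group of the list. JUN, also a target of other pathways, rose from 573.5 ± 44.2 to 1300.8 ± 334.8 and NRCAM, a cell adhesion molecule, fell from 634.7 ± 61.2 to 289.7 ± 86.8 (DESeq2 adjusted p = 0.00444). The adjusted p of NRCAM was 0.0565 without EV replicate 1 and 0.0538 without EV replicate 3. The other 9 were not called. ID2 (log2 fold change -0.81), TNFRSF19 (-0.34) and BAMBI (-0.28) were lower and CCND1 (0.33) higher with groups apart, while TBX3 (-0.33), CD44 (-0.30), MITF (-0.20), MYC (-0.01) and BIRC5 (0.23) overlapped. The median over the 11 genes was -0.28, against -0.001 over all genes at a mean of 50 or more. NKD1, RNF43 and ZNRF3 are also target genes and are counted with the cytoplasmic genes and receptor regulators. The median therefore leaves them out and does not cover all the targets listed. Each of them had a positive log2 fold change. Of these, NKD1 rose, RNF43 was not called (log2 fold change 0.35, DESeq2 adjusted p = 0.216), and ZNRF3 was under the fold minimum (log2 fold change 0.48, DESeq2 adjusted p = 0.0138).

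**Figure D4:**
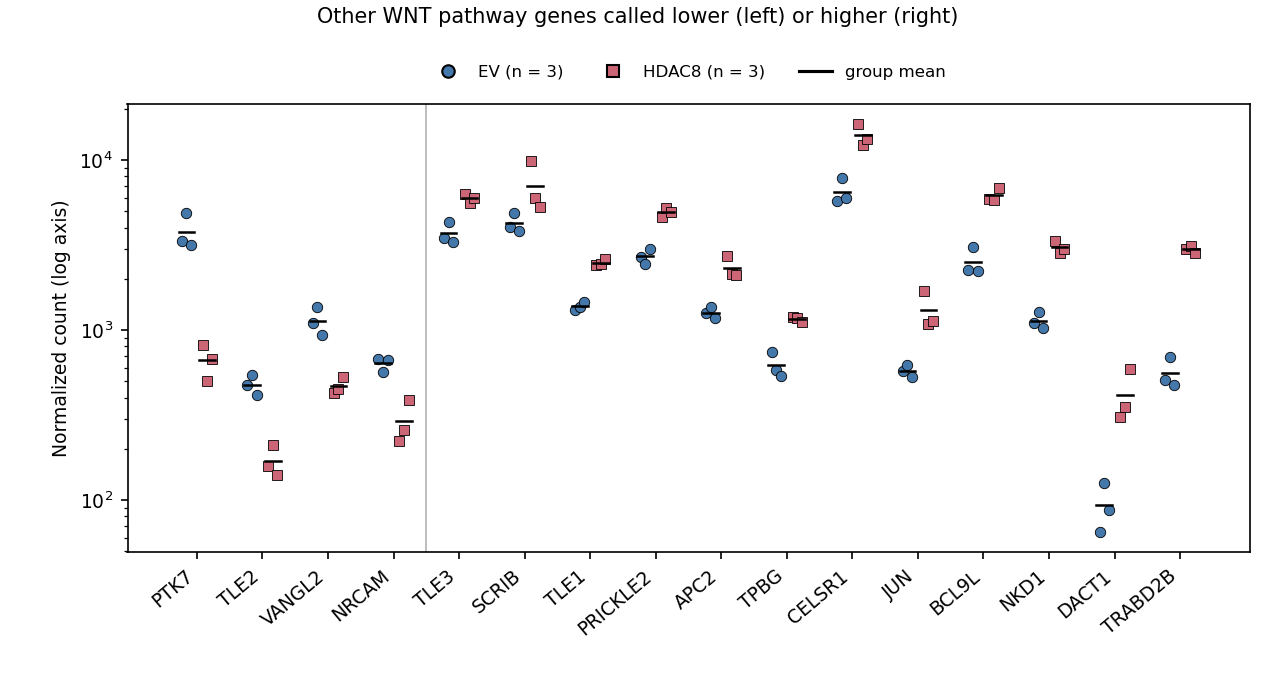
Normalized counts (log axis) per library for the 16 other WNT pathway genes past both thresholds, EV as circles and HDAC8 as squares, with bars at group means. In each of the 16 genes the groups do not overlap, with PTK7, TLE2, VANGL2 and NRCAM lower and the other 12 higher in the HDAC8 group.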

How the data were processed

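RNA-seq of 6 WM164 libraries (3 EV, 3 HDAC8) was used, with groups and replicate numbers taken from the labels. The authors used Trimmomatic for trimming, STAR for alignment to the transcriptome and RSEM for quantification. What they deposited are expected counts per gene, not scaled between libraries, in which a read that suits several genes is shared among them. Genome build, annotation release, duplicate removal and strand setting are not given in the sources used here. Separate cultures are not stated, so p-values measure the spread between these libraries, which may be technical.

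Expected counts were rounded. The contrast of HDAC8 and EV was tested in DESeq2 1.42.0 (R 4.3.3) with its Wald test, two-sided and without covariates, for 26162 genes whose counts summed to 10 or more, with Benjamini-Hochberg adjustment. Calls needed an adjusted p under 0.05 and a log2 fold change of at least 0.58. DESeq2 gave no adjusted p for 5141 genes, which were left out of counts of calls. Normalized counts are counts over DESeq2 size factors (0.918 to 1.17). TPM used the union of exons in GENCODE release 44, which also gave positions, and served only to order genes within a group. Intervals are at the 95% level and cover the spread between libraries, while floors cover counting error only, since reads carry no molecular identifiers. Genes with no symbol held 0.0804% to 0.102% of each library and were kept, since they have Ensembl identifiers.

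Genes written out are the called members, 15 members fixed by name, the called genes of the other pathway list and HDAC8. Further members and targets were given values after these had been seen. The members and lists were chosen with earlier results of these data known. In the pathway list TIKI1 is an older name of TRABD2A, which leaves 85 genes. Alternatives were edgeR 4.0.16 and limma-voom (limma 3.58.1) with TMM, other size factors, other filters, a replicate block, a fit without mitochondrially encoded genes, an unadjusted p and each library left out. Scripts were tested on simulated data. Within each group, every pair of libraries differed beyond counting noise (chi-square per degree of freedom 26.0 to 153.4).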

Additional observations from a re-analysis of the deposited data

How the results depend on the processing

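Of the 7 called genes, 2 (ROR2 and FZD7) kept direction and call in all 14 alternatives, and of the 16 other pathway genes called, 14 did. The count of higher members was 1 with limma-voom, where only LRP5 passed, and ran from 1 to 4 when single libraries were left out, lowest without HDAC8 replicate 1. The count of lower members ran from 2 to 4 there, lowest without EV replicate 2 and without EV replicate 3. With an unadjusted p, 1839 of all genes were higher and 1856 lower, as that alternative drops the correction. Leaving out one library gave 877 to 1218 higher and 746 to 1378 lower of all genes, 746 being without EV replicate 3. Members that were not called changed sign in fits without one library: RYK ran from -0.292 to 0.033, LGR4 from -0.399 to 0.010 and AXIN2 from -0.101 to 0.094 (log2). The cause was not tested. Libraries with the same replicate number did not deviate together (correlations of -0.03, -0.07 and 0.04), so the numbers give no pairing. Under the replicate block, 3 members were higher and 3 lower, as TCF7L1 was no longer called (adjusted p = 0.0847), and the counts of other pathway genes were 12 and 4. HDAC8 transcript was not called in any alternative (log2 fold change 0.08 to 0.24). Shares of reads without division by length, added after the data had been seen, kept their direction for FZD7, FZD6, LRP5, ROR2 and LEF1. Total-count size factors moved the median of all genes by 0.043 (log2). Ligands with normalized counts under 50 have intervals too wide to show a change of several fold.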
